A study of Mus musculus with 9 samples.

Results

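Collagen chain genes encode the alpha chains from which collagens are assembled. They were chosen by name, as every gene called Col, a number, the letter a and a number in the table of Lewis lung carcinoma (LLC) cells, which gave 44 of 21936 genes, and all 44 were also among the 22060 genes of the macrophage table. The rule itself uses names and no measured value. RNA was sequenced from 9 cultures of mouse cells of strain C57BL, with 1 library per group. The macrophages were bone-marrow-derived (BMDM), of the kinds labelled GM-BMDM and M-BMDM, either untreated or after 4 h of tunicamycin, an inhibitor of N-linked glycosylation that causes protein folding stress in the endoplasmic reticulum (ER). LLC cells, an established mouse tumour line labelled as lung, were left untreated or cultured for 24 h in medium conditioned for 16 h by macrophages. Those macrophages were GM-BMDM or M-BMDM that had been kept for 12 h with or without tunicamycin and then washed, and their media are called stressed and unstressed below. The medium of the untreated LLC cells is not named in the labels, nor is any library tied to an animal.

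Collagens are secreted or membrane proteins whose alpha chains wind around each other into a helix. Chains are hydroxylated, glycosylated and folded in the ER, exported in large carriers, trimmed outside the cell and crosslinked by lysyl oxidases. Fibrillar collagens form the ropes of connective tissue, type IV chains form the network of basement membranes, fibril-associated collagens with interrupted helices (FACIT) sit on fibril surfaces, and transmembrane collagens stay anchored in the cell surface. In tumours most fibrillar collagen is usually credited to fibroblasts, while carcinoma cells and macrophages are known as smaller sources.

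By class the 44 genes were 11 fibrillar, 6 basement membrane network, 3 short-chain network (types VIII and X), 9 FACIT, 4 transmembrane, 2 multiplexin (types XV and XVIII), 6 beaded filament (type VI), 1 anchoring fibril (type VII) and 2 others. Upstream sequence was read from RefSeq (GRCm38.p6), which held windows for 35 of the 44 genes, and the positions of all 44 genes in the file equalled GENCODE M21 on GRCm38. The windows of 3 genes that the results below turn on are shown from 250 bases before the start to the base before it, 5′ to 3′ on the gene's strand. Col3a1 was the chain gene with the highest level per length, and Col7a1 and Col8a1 differed most between the kinds of medium. Capitals mark matches, on either strand, to the 4 motifs spelled out after the windows, and no match in these 3 windows overlapped another.
Col3a1, chr1:45311288-45311537, plus strand: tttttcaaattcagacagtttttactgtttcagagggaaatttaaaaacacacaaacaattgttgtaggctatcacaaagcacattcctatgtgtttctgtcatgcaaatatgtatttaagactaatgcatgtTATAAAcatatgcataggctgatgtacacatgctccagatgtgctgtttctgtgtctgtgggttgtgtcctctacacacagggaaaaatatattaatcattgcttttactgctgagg
Col7a1, chr9:108953336-108953585, plus strand: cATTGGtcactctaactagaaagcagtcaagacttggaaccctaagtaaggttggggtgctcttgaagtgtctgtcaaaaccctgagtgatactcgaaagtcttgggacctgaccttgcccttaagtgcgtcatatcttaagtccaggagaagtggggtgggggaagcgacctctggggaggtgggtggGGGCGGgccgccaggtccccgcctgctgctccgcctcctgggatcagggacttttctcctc
Col8a1, chr16:57754738-57754987, minus strand: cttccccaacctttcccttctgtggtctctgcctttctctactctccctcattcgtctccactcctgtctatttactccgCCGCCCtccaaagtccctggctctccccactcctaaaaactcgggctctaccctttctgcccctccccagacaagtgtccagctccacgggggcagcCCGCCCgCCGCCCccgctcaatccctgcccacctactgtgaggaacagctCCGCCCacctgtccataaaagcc
The Col3a1 window held the TATA box sequence TATAAA, which began 117 bases before the start, and neither of the other windows held that sequence. Windows with TATAAA made up 12.4% of all 32851 windows and 13.2% of the 38 collagen windows, where some genes have more than 1 window. The GC box GGGCGG occurred once in the Col7a1 window and 4 times in that of Col8a1, and stood in 57.9% of collagen windows against 32.7% of all windows. CCAAT was matched by ATTGG at the far end of the Col7a1 window, and its shares were 34.2% and 33.8%. The AP-1 sequence TGANTCA was matched in 1 collagen window, that of Col6a1, against 6.75% of all windows. It began 90 bases before the start that the RefSeq window used, and that window overlapped an exon of Col6a1 in GENCODE. These matches describe letters and not binding.

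Some chain genes are neighbours. Col4a1 and Col4a2, whose products combine in the main basement membrane collagen, are read in opposite directions on chromosome 8 from starts that overlap by 22 bases. Those shared bases are shown on the plus strand because the pair is compared below.
Col4a1 and Col4a2, chr8:11312805-11312826: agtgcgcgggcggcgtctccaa
Col4a4 and Col4a3 lie head to head 71 bases apart on chromosome 1, and Col4a6 and Col4a5 lie 1.308 kb apart on the X chromosome. Col3a1 and Col5a2 lie tail to tail 24.61 kb apart on chromosome 1, Col6a2 and Col6a1 lie 85.16 kb apart on chromosome 10, and Col6a6, Col6a5 and Col6a4 follow each other on chromosome 9.

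Assigned reads ran from 15020068 to 17128471 per LLC library and from 37695079 to 42751176 per BMDM library. Levels between libraries are given as CPM, counts scaled to the library's effective size, and levels between genes as FPKM, which also divides by gene length. In LLC cells 5 of 10 macrophage markers had 0 counts in all 5 libraries (Adgre1, Ptprc, Itgam, Tyrobp and C1qa), and the list summed to 14.5 to 24.9 CPM against 33169 to 52812 CPM in BMDM. Of the 6 epithelial markers Krt8 and Krt18 were expressed in LLC cells, whereas Krt19 had 0 counts and Epcam and Cdh1 reached at most 0.195 and 0.13 CPM. The fibroblast list summed to 187 to 374 CPM in LLC cells, with Thy1 at 0 and with Dpt, Pdgfra and Pdgfrb as its main members, and to 4.69 to 9.91 CPM in BMDM.

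LLC cells expressed 24 of the 44 genes, taken as at least 1 CPM in any library. Type III, IV, VI and XVIII chains led. Together the 44 genes held 0.399% of counts in untreated cells, 0.460% and 0.405% with the unstressed media of GM-BMDM and M-BMDM, and 0.315% and 0.307% with the stressed ones. The shares with stressed media were the lowest of the 5. Per length Col3a1 stood first at 113 FPKM in untreated cells, rank 251 of all genes, followed by Col4a1 at 83.7, Col4a2 at 63.3, Col18a1 at 54.4, Col6a3 at 48.8 and Col16a1 at 40.3 FPKM.

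Of the fibrillar genes 8 of 11 were expressed. Col3a1, the chain of type III collagen found in reticular and vessel-wall fibrils, measured 1095 CPM in untreated cells, 1650.3 and 1441 CPM with unstressed GM and M medium, and 938 and 939.6 CPM with the stressed media. It was highest with both unstressed media and lowest with both stressed ones. The type V chains, which set the diameter of fibrils, came next. Col5a1 measured 160 CPM in untreated cells, 233 and 169 CPM with unstressed GM and M medium, and 179 and 167 CPM with stressed GM and M medium. Col5a2 measured 53.3 CPM in untreated cells, 84.8 and 55.9 CPM with the unstressed media and 56.2 and 47.0 CPM with the stressed ones, in the same order. Both were highest with unstressed GM medium and lay close together in the other 4 libraries. Per length Col5a1 stood 3.09 to 3.98 times above Col5a2 in the 5 libraries. Col5a3 measured 59.9 CPM untreated, 58.3 and 57.0 CPM with the unstressed media and 48.2 and 43.0 CPM with the stressed media. Col24a1, a fibrillar collagen of developing bone and cornea, measured 55.2 CPM untreated, 33.8 and 46.5 CPM with the unstressed media and 26.3 and 27.4 CPM with the stressed media. Untreated cells were thus highest for both Col5a3 and Col24a1, and the stressed media lowest. Col11a2, a chain of the cartilage collagen type XI, measured 30.4 CPM untreated, 10.4 and 12.3 CPM with the unstressed media and 16.1 and 15.4 CPM with the stressed media, so that all 4 media lay below untreated cells. Col2a1, the main chain of cartilage fibrils, reached 1.76 to 3.03 CPM.

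Type I collagen, the most abundant collagen of bone and skin, was close to absent from this tumour line. Col1a2 had 6 counts in untreated cells and 60, 24, 39 and 39 counts with the media (unstressed GM and M, then stressed GM and M), which is 0.395, 3.90, 1.55, 2.46 and 2.31 CPM. Col1a1 had 0, 7, 15, 5 and 5 counts in the same order and stayed under 1 CPM. The untreated library was thus the lowest for both chains. Col27a1 had at most 1 count per library and Col11a1 had 0 counts in all 5, where 0 counts allow up to 3.

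The basement membrane pair Col4a1 and Col4a2 moved together. Col4a1 measured 618 CPM untreated, 597 and 571 CPM with unstressed GM and M medium, and 497 and 543 CPM with stressed GM and M medium. Col4a2 measured 415 CPM untreated, 390.4 and 358 CPM with the unstressed media, and 330.4 and 343 CPM with the stressed ones. Both were highest in untreated cells and lowest with stressed GM medium. Per length Col4a1 was 1.32 to 1.41 times Col4a2 in the 5 LLC libraries, and 0.252 to 0.854 times in the 4 BMDM libraries, where Col4a1 had 25 to 120 counts. Of the other network chains Col4a4 reached 1.57 CPM, while Col4a3, Col4a5 and Col4a6 stayed under 1 CPM. Col8a1, a short-chain collagen of vessel and corneal membranes, measured 9.68 CPM untreated, 16.4 and 5.74 CPM with unstressed GM and M medium, and 28.1 and 15.7 CPM with stressed GM and M medium. It was highest with stressed GM medium and lowest with unstressed M medium. Col8a2 and Col10a1 stayed under 1 CPM.

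The type VI chains, which assemble into beaded filaments around cells, formed the other large group. Col6a1 measured 138 CPM untreated, 136 and 106 CPM with unstressed GM and M medium, and 78.5 and 72.4 CPM with the stressed media. Col6a2 measured 33.5 CPM untreated, 37.2 and 25.9 CPM with the unstressed media, and 17.8 and 14.8 CPM with the stressed media. Col6a3 measured 577 CPM untreated, 507 and 451 CPM with the unstressed media, and 349 and 365 CPM with the stressed media. In each of these 3 genes both stressed media lay below the other 3 libraries. Per length Col6a1 was 6.94 to 9.28 times Col6a2. Col6a4, Col6a5 and Col6a6 had at most 3 counts in any library.

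Among FACIT genes 5 of 9 were expressed. Col16a1, which links fibrils to cells, measured 269 CPM untreated, 345 and 295 CPM with unstressed GM and M medium, and 238 and 214 CPM with the stressed media. Col12a1, a fibril-surface collagen of tendon and ligament, measured 13.0 CPM untreated, 36.0 and 14.5 CPM with unstressed GM and M medium, and 23.9 and 15.5 CPM with stressed GM and M medium. Col16a1 was lowest with the stressed media, whereas Col12a1 was higher with both GM media than in the other 3 libraries. Col14a1 measured 4.68 CPM untreated, 3.64 and 6.84 CPM with the unstressed media and 6.05 and 6.03 CPM with the stressed ones. Col20a1 had 132 counts (8.69 CPM) in untreated cells and 0, 3, 1 and 3 counts with the media (unstressed GM and M, then stressed GM and M). All 4 media lay far below untreated cells. Col9a3 reached 1.25 CPM, Col9a1, Col9a2 and Col22a1 stayed under 1 CPM, and Col19a1 had 0 counts.

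Transmembrane collagens were close to silent in LLC cells. Col13a1 measured 0.945 to 1.65 CPM and Col17a1, the hemidesmosome collagen of epithelia, 0.126 to 1.49 CPM, while Col23a1 and Col25a1 stayed under 1 CPM. Col18a1, the multiplexin whose end fragment is endostatin, measured 378 CPM untreated, 397 and 349 CPM with unstressed GM and M medium, and 295 and 258 CPM with the stressed media, and Col15a1 stayed under 1 CPM. Col7a1, the anchoring fibril collagen that ties basement membrane to underlying tissue, measured 16.6 CPM untreated, 60.1 and 16.4 CPM with unstressed GM and M medium, and 38.5 and 12.4 CPM with stressed GM and M medium. Both GM media lay above the other 3 libraries for Col7a1. Col26a1 and Col28a1 had at most 1 count.

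**Figure D1:**
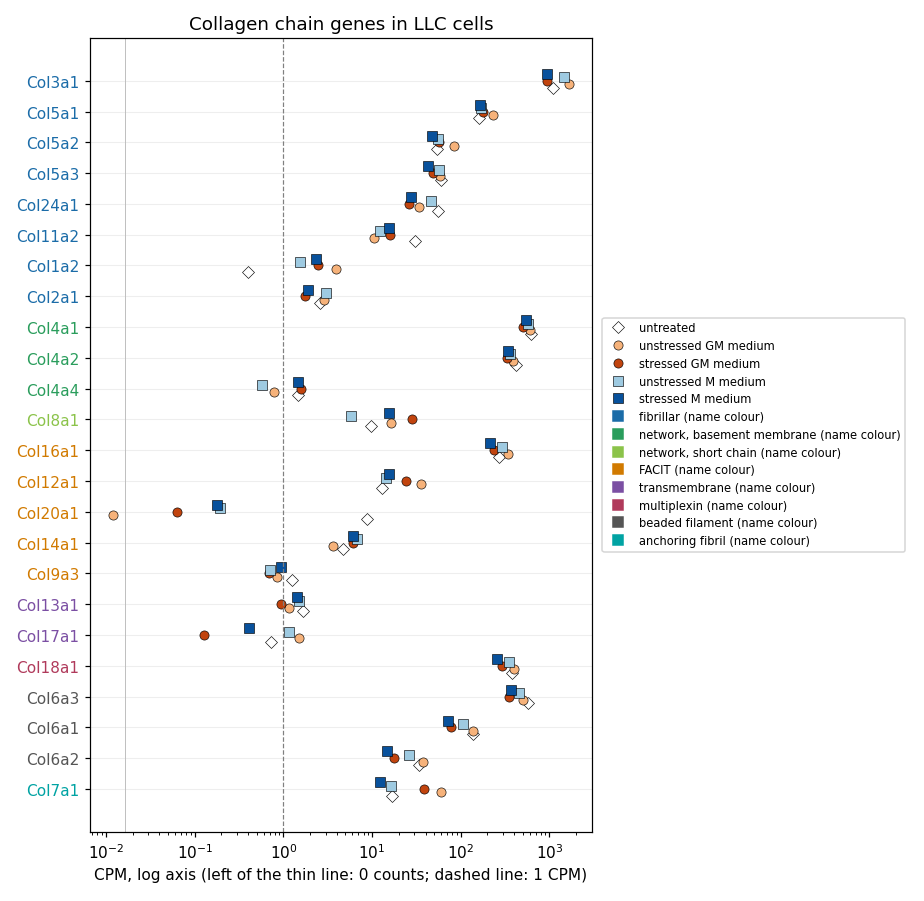
CPM on a log axis for the 24 collagen chain genes expressed in LLC cells, 1 point per library (diamond untreated, circles GM medium, squares M medium, dark for stressed medium), with gene names coloured by class. Col3a1 lies furthest right at 938 to 1650.3 CPM, Col20a1 spreads from 8.69 CPM in untreated cells to 0 counts with unstressed GM medium, and both dark points lie left of the light ones for Col6a1, Col6a2 and Col6a3.

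The first comparison asked how collagen expression differed between LLC cells in stressed and in unstressed medium. Most measured chains were lower with stressed medium, among them Col3a1 and all 3 tested type VI chains, and Col8a1 was higher. Within GM medium 17 of 22 genes compared lay below 0 on the log2(CPM + 1) scale, and the median was -0.41 against -0.0035 over all genes. Within M medium 17 of 22 also lay below 0, with a median of -0.20 against -0.0025 for all genes. These pairs of libraries share none, and 15 of the 22 genes (68.2%) lay below 0 in both, against 36.1% of all 11190 genes. Both pairs had Col8a1, Col4a4 and Col11a2 above 0.

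**Figure D2:**
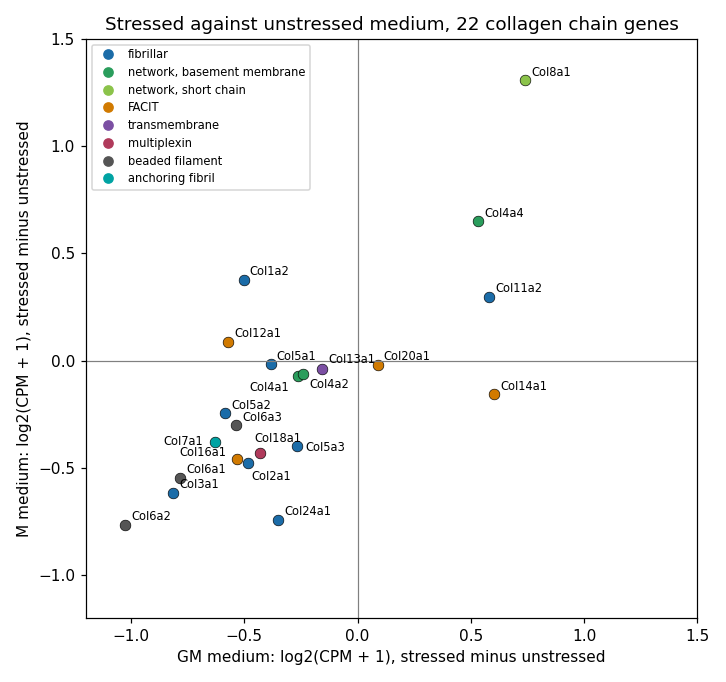
Difference in log2(CPM + 1) between stressed and unstressed medium for 22 collagen chain genes, GM medium on the x axis and M medium on the y axis, with 1 point per gene coloured by class. The lower left of the plot holds 15 genes with Col6a2 at its corner, and Col8a1 stands alone at the upper right at 0.74 and 1.31.

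No more than 1 gene per pair passed a log2 difference of 1. Within GM medium Col6a2 was 2.1-fold lower (95% counting interval 1.81 to 2.43), the 1 lower gene of 22, against 0.125% of all genes lower and 0.393% higher. Within M medium Col8a1 was 2.73-fold higher (2.14 to 3.51), the 1 higher gene, against 0.411% of all genes higher and 0.143% lower. Within GM medium Col8a1 was 1.71-fold higher (1.46 to 2.0), and within M medium Col6a2 was 1.75-fold lower (1.49 to 2.05). Col3a1 was 1.76-fold lower (1.72 to 1.80) in GM and 1.53-fold lower (1.5 to 1.57) in M medium. These intervals cover counting error only and not the difference between cultures.

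An additive fit over the 5 LLC libraries put the tunicamycin of the medium, its macrophage kind and the presence of medium into 1 model, tested by quasi-likelihood in edgeR with p-values adjusted over 11190 genes (Benjamini-Hochberg). It leaves 1 residual degree of freedom per gene, and its spread comes from the trend over all genes. That residual is the departure from additive effects of macrophage kind and tunicamycin, so p-values of the fit do not measure the spread between cultures. For stressed against unstressed medium 14 of 22 genes fell and 2 rose, against 10.9% and 12.5% of all genes. Among the fibrillar genes 5 of 8 fell, with Col3a1 at a log2 fold change of -0.72 ± 0.05 (SE, adjusted p 4.8e-39 in edgeR). All 3 tested type VI genes fell, Col6a1 by 0.68, Col6a2 by 0.94 and Col6a3 by 0.42 on the log2 scale. Col16a1 fell by 0.50, Col18a1 by 0.43, Col24a1 by 0.57 and Col7a1 by 0.56, whereas Col4a1 and Col4a2 fell by only 0.17 and 0.15. Col8a1 rose by 1.04 ± 0.14 (SE, adjusted p 3.6e-12 in edgeR) and Col11a2 by 0.47. DESeq2 without its independent filtering, an alternative added after seeing the data, called Col3a1, Col6a1, Col6a2, Col6a3, Col16a1 and Col18a1 lower and Col8a1 higher, against 1.39% and 2.68% of all genes. Col24a1 had an adjusted p of 0.052 in DESeq2 so run. With its default filtering DESeq2 gave 11 of the 22 genes no adjusted p and called 0 higher and 6 lower, against 4.88% and 2.63% of all genes with one. The fibroblast marker list summed lower with each stressed medium than with the unstressed medium of its kind (202 against 267 CPM for GM and 187 against 236 CPM for M). Its members did not all move alike. Dpt fell from 93.7 to 72.1 CPM with GM and from 91.2 to 75.1 CPM with M medium, and Pdgfra fell with both. Pdgfrb went from 61.2 to 59.0 CPM with GM and rose from 47.8 to 50.9 CPM with M medium. The part of these markers in the result was not tested. In bulk RNA fewer cells of a type and less RNA per cell cannot be told apart.

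**Figure D3:**
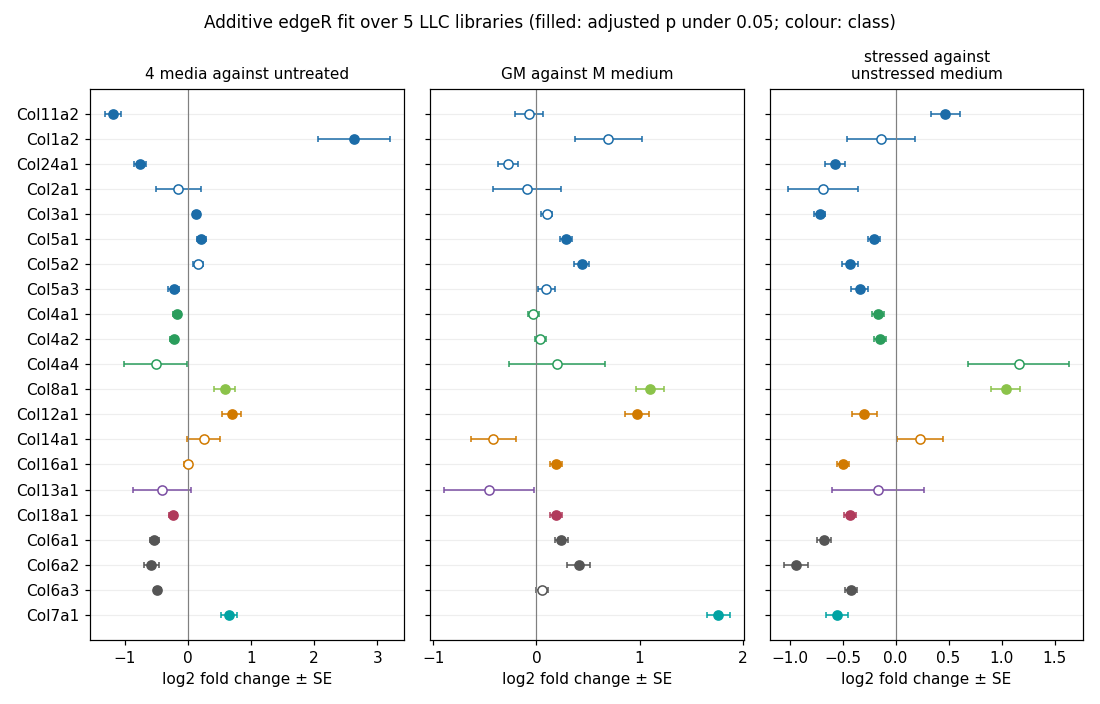
Log2 fold changes with standard errors from the additive edgeR fit over 5 LLC libraries, for 21 of 22 tested genes in 3 panels (4 media against untreated, GM against M medium, stressed against unstressed medium), filled where the adjusted p was under 0.05 and coloured by class. Col20a1 is left out because its log2 fold change of -6.64 for the media is off the scale of the others, and most filled points of the third panel lie left of 0 except Col8a1 and Col11a2.

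The second comparison set medium of GM-BMDM against medium of M-BMDM. Col7a1, Col8a1 and Col12a1 were higher with GM medium. Among unstressed media these were the 3 higher genes of 22 and none was lower, against 0.125% of all genes higher and 0.0626% lower. Col7a1 was 3.67-fold higher (3.19 to 4.23), Col8a1 2.86-fold (2.24 to 3.69) and Col12a1 2.48-fold (2.12 to 2.91). Among stressed media Col7a1 was the 1 higher gene at 3.11-fold (2.66 to 3.66), against 0.206% of all genes higher and 0.0536% lower. Col8a1 was then 1.79-fold higher (1.54 to 2.1) and Col12a1 1.54-fold higher (1.31 to 1.81). In the additive edgeR fit 9 of 22 genes were higher with GM medium and 0 lower, against 2.21% and 2.32% of all genes, with 1 collagen gene lower (Col24a1) at an unadjusted p under 0.05 and 0 lower in DESeq2. Col7a1 stood at a log2 fold change of 1.76 ± 0.11 (SE, adjusted p 9.1e-56 in edgeR), Col8a1 at 1.10 ± 0.14 and Col12a1 at 0.97 ± 0.12. The other 6 were Col5a1, Col5a2, Col6a1, Col6a2, Col16a1 and Col18a1, at 0.19 to 0.44. DESeq2 without independent filtering called Col7a1, Col8a1 and Col12a1 alone, with adjusted p 1.8e-14, 0.024 and 0.043, against 0.152% of all genes higher and 0.125% lower. With its default filtering it gave 14 of the 22 no adjusted p and called 0, against 0.341% of all genes higher and 0.603% lower. The macrophages sequenced, untreated or after 4 h and not 12 h of tunicamycin, had at most 16 counts of Col7a1 and 9 of Col8a1 in any BMDM library. Col12a1 had 52 and 38 counts in untreated and tunicamycin-treated GM-BMDM and 104 and 98 in M-BMDM. A part of macrophage RNA in the result was not tested.

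The third comparison set the 4 media against untreated LLC cells, and its 4 pairs share the untreated library. Col20a1 and Col11a2 had lower CPM and Col1a2 had higher CPM with each of the 4 media than in untreated cells. Col20a1 reached the mean of 1 CPM needed for comparison only through the untreated library, and Col1a2 only through the libraries with media. The calls of both genes, here and in the fit below, were thus largely set by that filter. Past a log2 difference of 1 were Col20a1 with every medium, Col11a2 with the unstressed media, and Col1a2 with all but unstressed M medium, where it was 3.92-fold higher (1.56 to 11.7) from 24 against 6 counts. With unstressed GM medium Col1a2 was 9.86-fold (4.28 to 27.9), Col7a1 3.62-fold (3.15 to 4.18) and Col12a1 2.76-fold (2.34 to 3.26) higher, the 3 higher genes of 22, against 1.04% of all genes. Col20a1, at 0 counts, was at least 44.6-fold lower with a floor of 3 counts in that library, and Col11a2 was 2.92-fold lower (2.43 to 3.52), the 2 lower genes, against 1.93% of all genes. With unstressed M medium 0 genes were higher and the same 2 were lower, against 0.5% and 1.4% of all genes, with Col20a1 44.9-fold lower (15.0 to 221) from 3 counts. With stressed GM medium Col8a1 at 2.90-fold (2.40 to 3.52), Col1a2 and Col7a1 were the 3 higher genes and Col20a1 and Col24a1 the 2 lower, against 1.48% and 2.4% of all genes. With stressed M medium Col1a2 was the 1 higher gene and Col20a1 and Col6a2 the 2 lower, against 1.22% and 2.14% of all genes.

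In the additive edgeR fit 6 of 22 genes rose with the 4 media and 10 fell, against 24.9% and 21.9% of all genes, so that the share that rose lay near that of all genes. This term averages the 4 media, and single media could differ in direction. Those that rose on this average were Col1a2 (2.63 ± 0.57, log2 fold change ± SE), Col12a1 (0.69), Col7a1 (0.66), Col8a1 (0.58), Col5a1 (0.22) and Col3a1 (0.14). Of these, Col3a1 lay below untreated cells with both stressed media, Col7a1 with both M media and Col8a1 with unstressed M medium. Those that fell were Col20a1 (-6.64 ± 0.47, a value that depends on the prior count because 1 library had 0 counts), Col11a2 (-1.18), Col24a1 (-0.76), Col6a2 (-0.57), Col6a1 (-0.53), Col6a3 (-0.48), Col18a1 (-0.24), Col5a3 (-0.23), Col4a2 (-0.23) and Col4a1 (-0.17). Of these, Col6a2 and Col18a1 lay above untreated cells with unstressed GM medium. DESeq2 without independent filtering called 2 higher (Col1a2 and Col7a1) and 7 lower (Col20a1, Col11a2, Col24a1, Col6a1, Col6a3, Col18a1 and Col4a2), against 8.94% and 8.78% of all genes, and with default filtering 1 higher and 6 lower, against 9.57% and 9.35%. Untreated cells were 1 library, and with medium as the only term of the edgeR fit 1 gene (Col1a2) rose and 2 (Col20a1 and Col11a2) fell, against 7.56% and 6.89% of all genes. The cartilage regulator Sox9 was, like Col11a2, lower with each medium, at 53.2 CPM untreated and 19.1 to 31.0 CPM with the media. Among the media the order of Sox9 differed from that of Col11a2. Col2a1, the main chain of cartilage fibrils, stood at a log2 fold change of -0.15, and Acan had 0 counts throughout. The matrix gene Dpt was also lower, at 204 CPM untreated and 72.1 to 93.7 CPM with the media. The part of Sox9 and Dpt in the result was not tested. Col20a1 shares 79 exon bases with the sense-overlapping transcript BX649560.1, so reads there cannot be told apart.

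Genes that modify, fold, export, trim, crosslink or bind collagen were set beside the chains, from 52 genes in 6 lists. In LLC cells 35 of them were tested, and with stressed against unstressed medium 8 rose and 8 fell in the additive edgeR fit (22.9% each), against 12.5% and 10.9% of all genes. The chain hydroxylation list had 4 of 13 tested genes higher and 1 lower. Its prolyl 4-hydroxylase subunit P4ha2 measured 42.6 CPM untreated, 55.4 and 55.8 CPM with the unstressed media and 96.2 and 91.5 CPM with the stressed media, so that both stressed media lay above the other 3 libraries. It rose by 0.75 ± 0.07 (log2 fold change ± SE, adjusted p 9.1e-25 in edgeR). P4ha1 rose by 0.26, P4hb, the shared disulfide isomerase subunit, by 0.23, and the prolyl 3-hydroxylase P3h1 by 0.37, while P3h4 fell by 0.30. Among folding and export genes 3 of 7 rose, Mia2, Mia3 and the coat protein gene Sec24d by 0.30, 0.23 and 0.26. All 3 tested crosslinking genes fell, the lysyl oxidase family members Loxl2, Loxl3 and Loxl4 by 0.27, 0.36 and 0.35. Of 4 propeptide processing genes Bmp1, which removes the end pieces of fibrillar chains, fell by 0.43 and the enhancer gene Pcolce2 rose by 0.30. The proteoglycan gene Lum, which is also on the fibroblast list, fell by 0.75, and of 6 receptor genes Mrc2, an uptake receptor for collagen, fell by 1.26 and Ddr1 by 0.22.

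**Figure D4:**
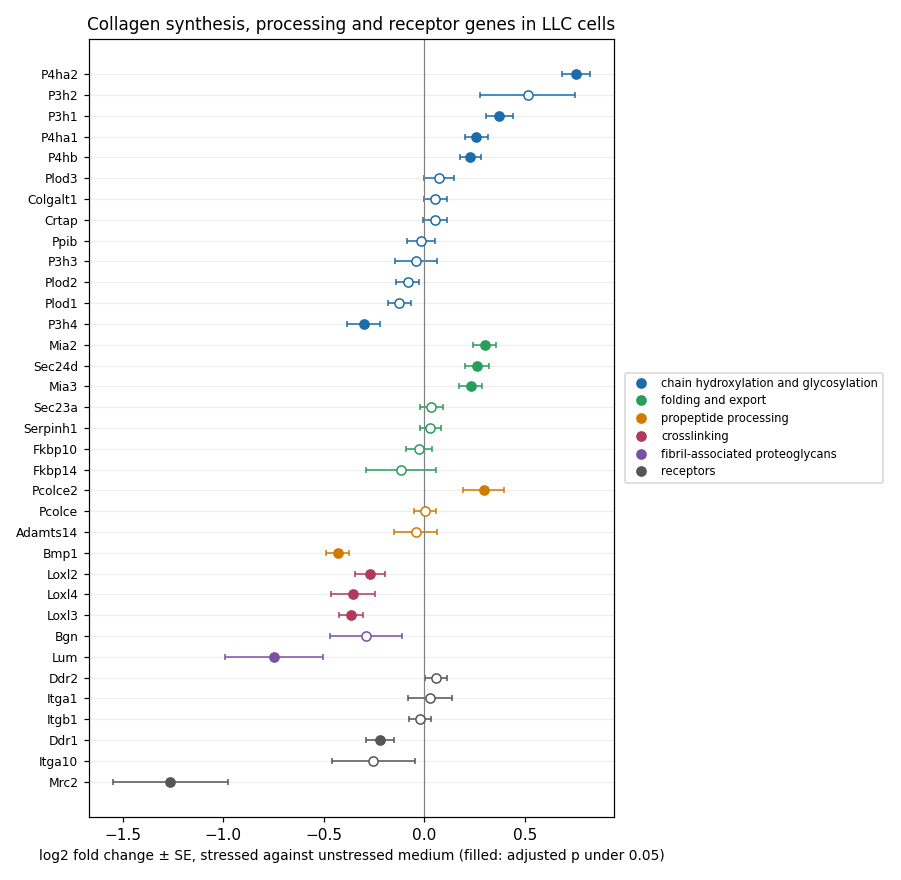
Log2 fold changes with standard errors for stressed against unstressed medium in the additive edgeR fit over 5 LLC libraries, for the 35 tested genes of collagen synthesis, processing and binding, coloured by list and filled where the adjusted p was under 0.05. P4ha2 lies furthest right among filled points at 0.75, the 3 crosslinking genes lie left of 0, and Mrc2 lies furthest left at -1.26.

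Against untreated cells 9 of the 35 rose with the 4 media and 9 fell in the same fit (25.7% each), close to the 24.9% and 21.9% of all genes. On average over the media Serpinh1, the collagen chaperone HSP47, rose by 0.44, Pcolce2 by 1.02 and P4ha2 by 0.76, while Itga10 fell by 1.58 and Mrc2 by 1.24. Serpinh1 measured 428 CPM untreated and 548 to 603 CPM with the media. For GM against M medium 3 rose, Bgn at 0.85 ± 0.18, Pcolce2 at 0.34 and Plod2 at 0.28, and Loxl3 fell by 0.32, so that 3 and 1 of 35 passed, against 2.21% and 2.32% of all genes.

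Macrophages carried few collagen reads. The 44 genes held 0.00239% of counts in untreated GM-BMDM, 0.00276% after tunicamycin, 0.00575% in untreated M-BMDM and 0.00761% after tunicamycin. Here 16 of 44 genes were expressed, 24 stayed under 1 CPM and 4 had 0 counts in all 4 libraries (Col10a1, Col22a1, Col4a4 and Col9a1). Col18a1 and Col4a5 were the 2 genes that reached 5 CPM. Col18a1 measured 0.795 CPM in untreated GM-BMDM, 1.0 CPM after tunicamycin, 20.3 CPM in untreated M-BMDM and 29.6 CPM after tunicamycin. Col4a5, an alpha chain of kidney and eye basement membranes, measured 1.07, 0.943, 9.04 and 9.81 CPM in the same order. Both M-BMDM libraries lay above both GM-BMDM libraries for each. The remaining expressed genes lay between 0 and 5.0 CPM. In the same order Col4a1 measured 0.621, 1.3, 2.07 and 2.84 CPM and Col4a2 2.19, 2.69, 2.15 and 3.79 CPM. Col11a2 measured 2.19, 2.14, 3.35 and 4.05 CPM, Col12a1 1.29, 0.895, 2.79 and 2.32 CPM, and Col20a1 0.894, 1.06, 2.36 and 2.73 CPM. Apart from Col4a2, each of these 5 genes was higher in both M-BMDM libraries. Col23a1, a transmembrane collagen, stayed at 2.28 to 2.91 CPM, Col15a1 at 0.912 to 1.56 CPM, Col5a2 at 0.801 to 1.34 CPM and Col1a2 at 0.377 to 1.4 CPM, while Col6a1 measured 0.174 and 0.141 CPM in GM-BMDM and 1.4 and 1.23 CPM in M-BMDM.

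The fourth comparison set GM-BMDM against M-BMDM, and different chains led in each kind. Among the fibrillar genes Col24a1 measured 3.65 and 5.0 CPM in untreated and tunicamycin-treated GM-BMDM and had 0 counts and 1 count in M-BMDM. Col27a1 measured 1.94 and 2.83 CPM in GM-BMDM and 0.107 and 0.0711 CPM in M-BMDM, and Col5a1 2.26 and 2.0 CPM in GM-BMDM and 0.188 and 0.237 CPM in M-BMDM. These 3 fibrillar genes were the ones higher in GM-BMDM. Col19a1, a FACIT gene, had 1 count and 0 counts in GM-BMDM and 150 and 173 counts in M-BMDM (4.03 and 4.10 CPM). Col24a1, Col27a1, Col5a1, Col19a1, Col18a1, Col4a1 and Col20a1 reached the mean of 1 CPM needed for comparison only through the kind where they were high. Of these, Col18a1, Col4a1 and Col20a1 measured 0.621 to 1.3 CPM in the lower kind, GM-BMDM. The calls of all these genes, here and in the fit below, were thus largely set by that filter. In untreated cells Col24a1 was at least 45.4-fold higher in GM-BMDM with a floor of 3 counts, Col27a1 18.0-fold (6.77 to 67.9) and Col5a1 12.0-fold (5.61 to 30.8) higher, the 3 higher genes of 14, against 12.4% of all genes. Col19a1 was 162-fold (28.6 to 6444), Col18a1 25.6-fold (18.0 to 37.6) and Col4a5 8.47-fold (6.15 to 11.9) lower, the 3 lower genes, against 7.02% of all genes. After tunicamycin 3 genes were again higher and 3 lower, against 12.6% and 7.82% of all genes, and all 6 were the ones named. Col18a1 was then 29.2-fold lower (21.5 to 40.5) and Col4a5 10.4-fold lower (7.51 to 14.8).

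In the additive edgeR fit over the 4 BMDM libraries 3 of 14 genes were higher in GM-BMDM and 7 lower, against 25.4% and 25.0% of all 11049 genes. Beyond the 6 genes above, Col4a1 (-1.39), Col20a1 (-1.38), Col12a1 (-1.24) and Col11a2 (-0.77) were lower on the log2 scale, and Col4a2, Col5a2, Col15a1 and Col23a1 did not pass. Col18a1 stood at -4.78 ± 0.18 (log2 fold change ± SE, adjusted p 3.4e-06 in edgeR). DESeq2 called the same 3 higher and 5 of the 7 lower, without Col11a2 and Col12a1, against 23.0% and 18.7% of all genes. With no filter on low counts edgeR called 4 of 40 higher and 12 lower, against 21.2% and 19.0% of all genes. These levels rest on few reads, since genes other than Col18a1 and Col4a5 had 0 to 212 counts per library. The macrophage marker list was expressed in full in all 4 libraries (10 of 10 markers), with Adgre1 and C1qa higher in M-BMDM and Itgam higher in GM-BMDM, at 365 and 380 CPM against 144 and 107 CPM. The fibroblast list summed to 9.91 and 9.07 CPM in GM-BMDM and 4.86 and 4.69 CPM in M-BMDM, and its members did not all move alike. Of its 8 members Thy1 had 74 and 56 counts in GM-BMDM against 0 and 3 in M-BMDM, Pdgfra 46 and 37 against 9 and 16, and Dcn 22 and 29 against 1 and 9. Acta2, the largest part of the sum, measured 5.36 and 4.95 CPM against 3.57 and 3.08 CPM. Pdgfrb had 35 and 36 counts against 24 and 27, and Fap 6 and 13 against 14 and 12. Lum had at most 4 counts and Dpt 0 counts in all 4 libraries. The osteoblast, epithelium and endothelium lists were also higher in GM-BMDM, and the chondrocyte and Schwann cell lists lower. The part of these markers in the result was not tested.

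The last comparison asked how 4 h of tunicamycin changed collagen expression in the macrophages themselves. No collagen gene was called, but the spread between cultures was not measured. Since edgeR called no gene at all here, its fit cannot show that collagen genes stayed unchanged. A log2 difference of 1 was reached by 0 of 14 genes in GM-BMDM, against 0.0634% of all genes higher and 0.443% lower, and by 0 of 14 in M-BMDM, against 1.18% and 0.29%. In the edgeR fit 0 of 14 genes passed, as did 0.0% of all genes, with 1 collagen gene (Col18a1, log2 fold change 0.49 ± 0.16 SE, adjusted p 0.46) whose raw p lay below 0.05. DESeq2 called 0 collagen genes, against 0.172% of all genes higher and 0.299% lower. By counts alone Col18a1 was 1.46-fold higher (1.33 to 1.60) in M-BMDM and 1.27-fold (0.788 to 2.08) in GM-BMDM. Col4a1 was 2.09-fold higher (1.28 to 3.5) in GM-BMDM, from 25 to 55 counts, and 1.38-fold (1.03 to 1.86) in M-BMDM. Col4a2 was 1.77-fold higher (1.34 to 2.34) in M-BMDM, from 80 to 160 counts, and 1.23-fold (0.922 to 1.64) in GM-BMDM. In the fit both had larger values than Col18a1, 0.70 ± 0.32 for Col4a1 and 0.56 ± 0.26 for Col4a2 (log2 fold change ± SE), with adjusted p 0.51 and 0.52 in edgeR.

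**Figure D5:**
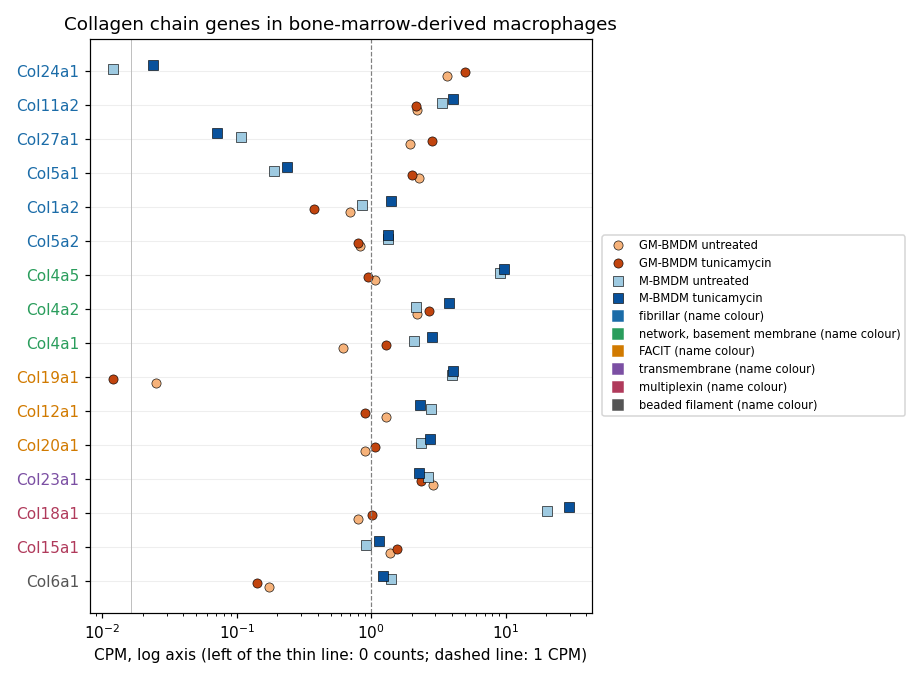
CPM on a log axis for the 16 collagen chain genes expressed in BMDM, 1 point per library (circles GM-BMDM, squares M-BMDM, dark after tunicamycin), with gene names coloured by class. Circles lie right of squares for Col24a1, Col27a1 and Col5a1, and squares lie right of circles for Col18a1, Col4a5 and Col19a1. Light and dark points of a kind are further apart for some genes, such as Col4a1 in GM-BMDM at 0.621 and 1.3 CPM.

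Set side by side, 11 genes were expressed in both cell types, 13 in LLC cells and not in BMDM, 5 in BMDM and not in LLC cells, and 15 in neither, and the tables were scaled separately. The 5 seen in BMDM were Col15a1, Col19a1, Col23a1, Col27a1 and Col4a5. The 15 were Col1a1, Col10a1, Col11a1, Col22a1, Col25a1, Col26a1, Col28a1, Col4a3, Col4a6, Col6a4, Col6a5, Col6a6, Col8a2, Col9a1 and Col9a2. Col3a1, the leading chain of LLC cells, had 7 to 24 counts in BMDM, and Col6a3 had 7 to 31. Expressed meant at least 1 CPM in any of 5 LLC libraries or in any of 4 BMDM libraries. No share of all genes stands beside these numbers of expressed genes, so they do not set collagen genes apart from others.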

How the data were processed

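RNA was measured in 9 libraries, with groups taken from the sample titles and 1 library per group, so the spread between cultures is not measured within a group. The authors deposited raw counts for each gene, 1 table for each cell type, and next to them FPKM, as the headers name both columns. Recomputing FPKM from count, gene length and total gave the deposited values within 5e-07 (LLC) and 4.9e-06 (BMDM), and FPKM served to compare genes. In the LLC table a line-end character inside the last quoted cell was stripped. Cutadapt 1.15, HISAT2 and TopHat2 2.1.0 are named without role or order, per the submitters' processing notes. No source used here names the counter, its strand setting or the build. Coordinates equalled GENCODE M21 on GRCm38 for 21604 of 21817 LLC genes. All rows named a gene.

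CPM values used TMM effective library sizes from the whole of each table (edgeR 4.0.16, R 4.3.3). Genes with a mean of at least 1 CPM entered comparisons, 11190 for LLC and 11049 for BMDM. Differences between 2 libraries are log2(CPM + 1), called from 1, with no p-value. Folds are ratios of CPM with exact Clopper-Pearson intervals at 95%, for counting error only, and 0 counts were replaced by a floor of 3 counts. The additive models were tested with edgeR (glmQLFTest, Benjamini-Hochberg, 0.05), and SE is the absolute log2 fold change over the square root of F. The coefficient of variation was 4.28% in LLC and 11.5% in BMDM, with a prior df of 5.77 for BMDM and an infinite one for LLC. It measures departure from the additive models and not the spread between cultures. DESeq2 1.42.0, other scalings, a pseudocount of 0.25, no filter and reduced designs were alternatives, and a gene to which DESeq2 gave no adjusted p was left without one. Fits were tested on simulated data.

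Members and gene lists were chosen with earlier results of these data known. Every member is accounted for, members with at least 5 CPM in a library are given per library, and members past a call of the edgeR fits or of a comparison of 2 libraries are named. Of the 52 related genes those named passed a fit. Col4a1 with Col4a2, Col9a3 with Tcfl5, Col20a1 with BX649560.1 and Col5a1 with antisense transcripts share exon bases, so their reads may be split between them. A chain gene without a row in the LLC table was not analysed here, and neither were proteins.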

Additional observations from a re-analysis of the deposited data

Results flagged for a closer look

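Against untreated cells Col8a1 lay on opposite sides of 0 in the unstressed media, where GM medium gave a log2 difference of 0.71 and M medium one of -0.66, and the counting intervals of both folds left out 1. Col18a1 did so as well, at 0.07 with unstressed GM medium and -0.12 with unstressed M medium. With stressed media Col7a1 stood at 1.17 for the GM and -0.40 for the M kind. Each pair shares the untreated library and each group is 1 library, so these differences between the kinds of medium were not tested here beyond the GM against M term of the additive fit.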

How the results depend on the processing

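The LLC fits rest on 1 library per group and on a spread pooled over all genes, and their counts depended on the tool. For the 4 media against untreated cells DESeq2 called 1 gene higher and 6 lower where edgeR called 6 and 10, and with medium as the only term edgeR called 1 and 2. For GM against M medium DESeq2 called 0 higher where edgeR called 9, and it gave 14 of the 22 genes no adjusted p, among them Col7a1, Col8a1 and Col12a1. For the tunicamycin of the medium it called 0 higher and 6 lower where edgeR called 2 and 14, with 11 genes given no adjusted p. Without independent filtering, an alternative chosen after seeing the data, DESeq2 called 2 higher for the media, 3 higher for GM against M medium, and 1 higher and 6 lower for tunicamycin of the medium. The cause of the difference between the tools was not tested. With RLE in place of TMM scaling in edgeR, Col3a1 (4 media against untreated) and Col12a1 (tunicamycin of the medium) no longer passed. In BMDM, no filter on low counts raised the lower calls of GM against M from 7 to 12, with Col14a1, Col4a6, Col6a1, Col6a2 and Col6a3 added, and added Col9a2 to the 3 higher ones. In the fit for tunicamycin of the medium no filter put Col17a1 in place of Col12a1 among the 14 lower genes. A pseudocount of 0.25 moved counts of genes past a log2 difference of 1 from 3 to 5 (lower in untreated GM-BMDM than M-BMDM), from 3 to 6 (after tunicamycin), from 0 to 1 (higher with unstressed M medium than untreated) and from 1 to 2 (higher with stressed than unstressed M medium). Without the filter 2 genes and not 1 were lower with stressed than unstressed GM medium. Direction turned for Col16a1 (0.0206 with medium as the only term) and, in the BMDM tunicamycin fit, for Col4a5 (-0.0269 in DESeq2) and Col5a1 (0.00877 in DESeq2), none of which passed a test. Of 142 recomputed counts 125 stayed within 1.5 times the reported count, and of 1109 recomputed gene values 1040 kept direction and call. Depth limits genes under 1 CPM, which had at most 35 counts per library. No paired analysis was possible because each group held 1 library.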

Other observations

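Among the related genes in macrophages, 23 of 52 were tested, and 8 were higher and 8 lower in GM-BMDM than in M-BMDM in the additive edgeR fit, against 25.4% and 25.0% of all genes. The collagen receptor subunit Itga1 measured 108 and 104 CPM in untreated and tunicamycin-treated GM-BMDM and 1.26 and 1.47 CPM in M-BMDM, a log2 fold change of 6.27 ± 0.17 (SE, adjusted p 2.3e-06 in edgeR). The crosslinking enzyme gene Lox measured 10.7 and 8.32 CPM in GM-BMDM and 3.35 and 3.46 CPM in M-BMDM. Both GM-BMDM libraries lay above both M-BMDM libraries for these genes and for the collagen galactosyltransferase gene Colgalt1, at 518 and 487 CPM against 206 and 183 CPM. The order was opposite for P3h3, at 2.56 and 2.29 CPM against 14.2 and 13.6 CPM, for P4ha2, at 2.63 and 2.80 CPM against 10.9 and 12.7 CPM, and for the inhibitory collagen receptor Lair1, at 94.8 and 82.3 CPM against 173 and 156 CPM.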
